A study of Mus musculus with 4 samples.

Results

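The NF-κB family was examined at the level of its transcripts in cultured mouse primary myoblasts. The 10 genes were chosen by name, as the rows of the deposited expression table whose gene symbol was that of a subunit (Nfkb1, Nfkb2, Rel, Rela and Relb), of a classical inhibitor (Nfkbia, Nfkbib and Nfkbie) or of a nuclear relative of the inhibitors (Nfkbiz and Bcl3). All 10 were found among the 24445 genes of the table. They were read beside Il6, an inflammatory cytokine gene with a well known NF-κB element, to ask whether a transcriptional response of this pathway accompanied its higher level in cells without Tet2.

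RNA came from 2 WT and 2 Tet2 KO samples of C57BL/6 mice. Per the study's methods the KO is constitutive, made by deleting exon 3, so the deletion was not limited to the muscle lineage. Tet2 oxidises 5-methylcytosine in DNA. Per the labels, hindlimb muscle satellite cells were obtained by sorting. The gate excluded cells with CD45 or CD11b (leukocytes), CD31 or Sca1 on the surface and required CD34 and integrin alpha 7. The sorted cells were cultured on collagen for at least 3 days and harvested as MyoD-positive myoblasts. The table gave 1 FPKM value per gene and group (fragments scaled to transcript length and to the number of mapped fragments). No value per sample was used, so no difference below could be set against the spread between samples, and no test was made. Depth was unknown, and no counting interval could be given.

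NF-κB proteins bind DNA as dimers of 5 related subunits. Nfkb1 and Nfkb2 encode long precursors that are cut into the DNA-binding subunits p50 and p52, whereas Rela, Relb and Rel encode subunits with a transactivation domain. In resting cells the inhibitors of the IκB family hold dimers in the cytoplasm, and signals from cytokine and Toll-like receptors lead to their phosphorylation and destruction. The freed dimers activate inflammatory genes and also the genes of their own inhibitors, above all Nfkbia, which closes a negative feedback loop. Nfkbia transcript is for that reason a common readout of the pathway. In skeletal muscle the pathway is known to promote myoblast proliferation, to restrain differentiation and to act in wasting.

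Since self-regulation of the family runs through κB elements, the sequence before the start of the genes was read first. Windows of 300 bases (250 before to 50 after the annotated start) were available for 7 of the 10 genes from RefSeq, taken from build GRCm38.p6, and each was found once, letter for letter, in mm9, the build of the expression data. Nfkb1, Relb and Nfkbiz had no window in this table. The κB consensus element, 10 bases that open with 3 G and close with 2 C, was searched on both strands. It was matched in 5 of the 7 genes, Nfkb2, Rel, Nfkbia, Nfkbie and Bcl3, against 5.14% of the 27025 genes of the table of windows and 6.17% of the 9114 of them with a mean of both groups of at least 1 FPKM. Nfkb2 had 3 annotated starts and so 3 chances of a match. Counted by window, 7 of 9 windows of the family held a match against 4.51% of 32851. All 3 windows of Nfkb2 are among the 7, so this count does not remove the weight of that gene. Its windows that begin at 46379935 and 46380170 overlap and share the same match. A match describes letters and is not evidence of binding in these cells.

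The 120 bases just before the start are shown for 4 genes of the family with a match there, for Il6, and for Rela and Nfkbib, where none was found in the whole window. Capitals mark the matches. All are written 5′ to 3′ on the strand of the gene. In mm9 they lie at chr12:56593635-56593754 (Nfkbia, minus strand), chr19:46379107-46379226 (Nfkb2, plus strand), chr11:23670970-23671089 (Rel, minus strand), chr17:45692529-45692648 (Nfkbie, plus strand), chr5:30339534-30339653 (Il6, plus strand), chr19:5637421-5637540 (Rela, plus strand) and chr7:29551664-29551783 (Nfkbib, minus strand).
Nfkbia: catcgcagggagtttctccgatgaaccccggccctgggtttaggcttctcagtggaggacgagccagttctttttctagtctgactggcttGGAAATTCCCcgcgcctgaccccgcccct
Nfkb2: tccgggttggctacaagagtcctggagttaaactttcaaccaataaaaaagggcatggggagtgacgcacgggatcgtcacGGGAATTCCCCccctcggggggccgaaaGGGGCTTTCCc
Rel: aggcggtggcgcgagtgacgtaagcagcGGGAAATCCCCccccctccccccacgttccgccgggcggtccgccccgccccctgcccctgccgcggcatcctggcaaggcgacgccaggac
Nfkbie: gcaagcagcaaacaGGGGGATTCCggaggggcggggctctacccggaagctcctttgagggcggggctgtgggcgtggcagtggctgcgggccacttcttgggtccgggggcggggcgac
Il6: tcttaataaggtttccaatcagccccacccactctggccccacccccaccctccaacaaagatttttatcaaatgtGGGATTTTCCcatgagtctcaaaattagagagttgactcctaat
Rela: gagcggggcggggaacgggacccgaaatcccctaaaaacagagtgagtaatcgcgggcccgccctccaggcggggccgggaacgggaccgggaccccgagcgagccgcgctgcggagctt
Nfkbib: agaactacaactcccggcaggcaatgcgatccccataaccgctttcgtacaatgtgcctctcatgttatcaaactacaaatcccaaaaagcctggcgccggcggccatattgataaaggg

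The match of Nfkbia began 29 bases before the start and that of Il6 began 44 bases before it. Nfkb2 held 2 separate matches in this window, the nearer of them 11 bases before the start. The matches of Rel and Nfkbie lay farther out, 92 and 106 bases before the start, and the match of Bcl3 began at base 3 counted from the start. The runs of 11 capitals in Rel and Nfkb2 are each 2 matches shifted by 1 base.

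**Figure D1:**
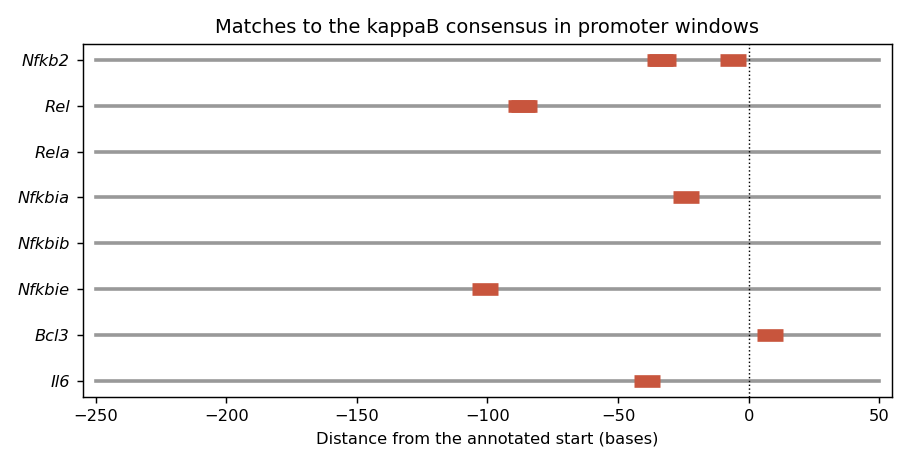
Matches to the κB consensus (red blocks, either strand) in the window of 250 bases before to 50 bases after the annotated start, as distance from the start in bases; grey lines are the windows, and Nfkb2 is shown for the first of its 3 starts. Nfkbia, Il6 and Nfkb2 carry a match within 44 bases before the start, and Rela and Nfkbib carry none.

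The subunits differed little between the groups. Nfkb1 (chromosome 3, from 135247619 to 135354511, minus strand) has 25 exons in its longest annotated transcript. It had 48.4 FPKM in Tet2 KO against 48.7 in WT, a difference of -0.01 on the log2(FPKM + 1) scale. All differences between the groups below are given on this scale unless said otherwise, with positive values for higher levels in Tet2 KO; the pseudocount of 1 understates differences of genes with low values. For Nfkb1, 94.2% of the 11692 genes with a mean of at least 1 FPKM differed by as much or more, in either direction.

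Nfkb2 (chromosome 19, from 46379227 to 46401646, plus strand) had 23.8 FPKM in Tet2 KO against 23.2 in WT. Rel, which encodes c-Rel, a subunit best known from lymphoid and myeloid cells (chromosome 11, from 23641729 to 23670970, minus strand), was the lowest of the family, with 1.19 FPKM in Tet2 KO against 1.17 in WT. Relb, the partner of p52 in the alternative pathway (chromosome 7, from 20191571 to 20214787, minus strand), had 12.0 FPKM in Tet2 KO against 11.3 in WT. These 3 genes differed by 0.04, 0.01 and 0.08, within the range from -0.11 to 0.09 that held the middle 50% of all genes at that level.

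Rela, which encodes p65, the main transactivating subunit of the canonical pathway (chromosome 19, from 5637490 to 5648130, plus strand), was the subunit that differed most. It had 14.7 FPKM in Tet2 KO against 16.4 in WT, a difference of -0.15, and 33.9% of all genes differed by as much. It was lower, not higher, in Tet2 KO.

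Of the 5 inhibitor and nuclear IκB genes 4 had higher values in Tet2 KO, Nfkbia by the most. Nfkbia, the gene of IκBα, is a compact gene of 6 annotated exons (chromosome 12, from 56590396 to 56593634, minus strand). It had 64.8 FPKM in Tet2 KO against 47.7 in WT, which is 1.36-fold and 0.43 on the log2(FPKM + 1) scale. This was the largest difference of the 10 genes, and 9.51% of all genes differed by as much in either direction. It placed Nfkbia above Nfkb1 as the most abundant transcript of the family in Tet2 KO, whereas Nfkb1 was ahead in WT, at 48.7 FPKM.

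The other classical inhibitors were less abundant. Nfkbib, the gene of IκBβ (chromosome 7, from 29541193 to 29551663, minus strand), had 10.7 FPKM in Tet2 KO against 9.02 in WT, a difference of 0.22; 1.94% of its exon bases overlap Sirt2 on the other strand. Nfkbie, the gene of IκBε (chromosome 17, from 45692649 to 45700117, plus strand), had 2.75 FPKM in Tet2 KO against 2.83 in WT, a difference of -0.03. Of the 3 classical inhibitors Nfkbie was thus the one not higher in Tet2 KO.

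Both nuclear proteins of the IκB family had higher values in Tet2 KO. Nfkbiz encodes IκBζ, a short-lived nuclear cofactor needed for a second wave of inflammatory genes, Il6 among them (chromosome 16, from 55811490 to 55838754, minus strand). It had 32.9 FPKM in Tet2 KO against 27.4 in WT, a difference of 0.25. Bcl3 encodes a nuclear partner of p50 and p52 homodimers that can activate or repress (chromosome 7, from 20393811 to 20408104, minus strand). It had 13.1 FPKM in Tet2 KO against 12.0 in WT, a difference of 0.12; 6.48% of its exon bases overlap the antisense gene Gm16175.

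**Figure D2:**
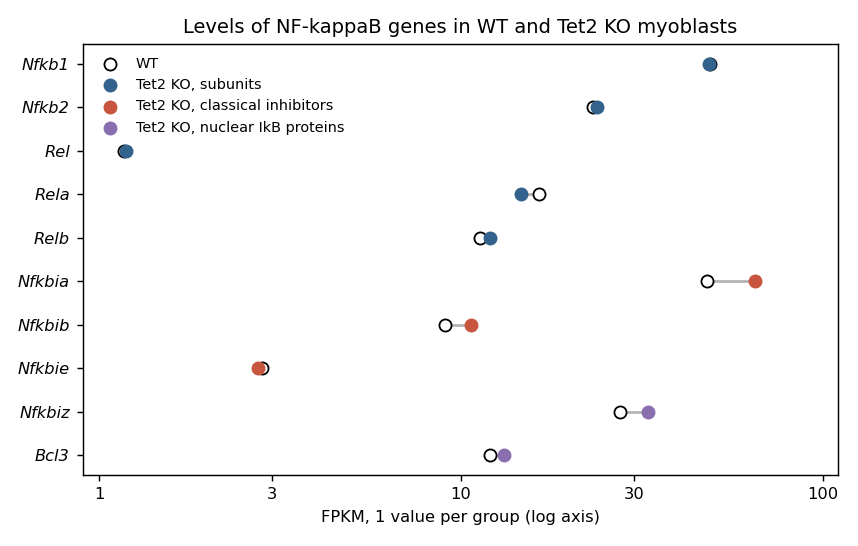
FPKM (log axis) of the 10 NF-κB genes, 1 value per gene and group; open circles are WT and filled circles Tet2 KO, coloured by role. The circles of the subunits nearly coincide except for Rela, and the widest gap is that of Nfkbia, from 47.7 in WT to 64.8 in Tet2 KO.

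A fold limit of 1.5 on the log2(FPKM + 1) scale was used to count differences; it is a size and not a test. None of the 10 genes passed it in either direction, where 6.61% of the 11692 genes did, 3.72% as higher and 2.89% as lower in Tet2 KO. At that share fewer than 1 gene of 10 would pass, so the count of 0 does not set the family apart from other genes. All 10 genes had a mean of at least 1 FPKM. Of them 7 were above 0 and 3 below. Their median was 0.06, and that of all 11692 genes was -0.0044. By role the median was 0.01 for the 5 subunits, 0.22 for the 3 classical inhibitors and 0.19 for the pair of nuclear proteins.

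**Figure D3:**
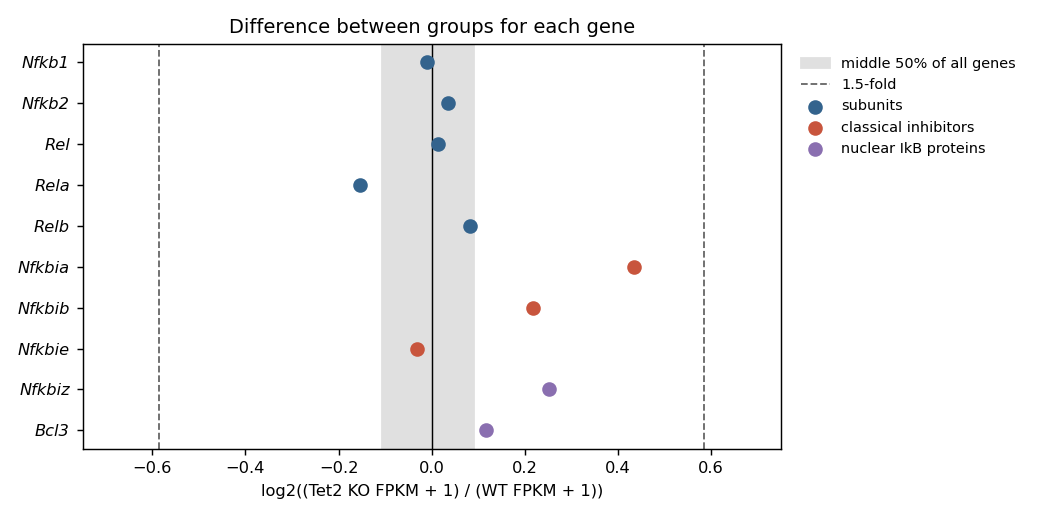
Difference between Tet2 KO and WT for each NF-κB gene on the log2(FPKM + 1) scale, 1 point per gene. Dashed lines are the 1.5-fold limit and the grey band, from -0.11 to 0.09, is the middle 50% of all genes with a mean of at least 1 FPKM; 4 of the 5 subunits lie inside the band, and Nfkbia, Nfkbib, Nfkbiz and Bcl3 lie to its right.

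Transcript levels were summed by role. Such sums do not measure the balance of the proteins or of their activities. The 5 subunits together had 100.01 FPKM in Tet2 KO against 100.8 in WT, 0.992-fold. The 5 inhibitor and nuclear IκB genes together had 124 FPKM in Tet2 KO against 99.0 in WT, 25.5% more. Their sum over that of the subunits was therefore 1.24 in Tet2 KO and 0.982 in WT. Nfkbia made up 67.9% of the difference of 25.2 FPKM, and without it the other 4 genes were 1.16-fold higher. By class, Nfkbia, Nfkbib and Nfkbie together had 78.2 FPKM in Tet2 KO against 59.5 in WT, 1.31-fold. Nfkbiz and Bcl3, which are not only inhibitors, together had 46.0 FPKM in Tet2 KO against 39.4 in WT, 1.17-fold. The ratio of Nfkbia to Rela was 4.42 in Tet2 KO and 2.90 in WT.

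The make-up of the subunits hardly differed. Nfkb1 contributed 48.4% of their summed FPKM in Tet2 KO and 48.3% in WT, and Nfkb2 contributed 23.8% and 23.0%. Rela contributed 14.7% in Tet2 KO and 16.3% in WT. Rel contributed 1.19% and 1.16%. In descending order of level in WT the family ran Nfkb1, Nfkbia, Nfkbiz, Nfkb2, Rela, Bcl3, Relb, Nfkbib, Nfkbie and Rel. The order in Tet2 KO was the same except that Nfkbia stood ahead of Nfkb1. Whether neighbours in this order differ beyond their spread could not be told from group values.

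Genes upstream of the subunits were read in 2 lists, of which no gene passed 1.5-fold where 6.61% of all genes did; in lists of this size a count of 0 does not set them apart. The IκB kinase complex and its activators, a list of 12 genes, had a median of 0.04. The catalytic kinase gene Ikbkb had 13.12 FPKM in Tet2 KO against 13.10 in WT, and Chuk, the most abundant of the list, had 31.9 and 33.1 FPKM. At the ends of this list stood Ikbkg, the gene of the scaffold NEMO, at -0.31, and the inducible kinase gene Ikbke at 0.55, with 3.38 FPKM in Tet2 KO against 1.995 in WT, which is 1.70-fold and past the limit when no pseudocount is added. Of 22 receptor and adaptor genes 21 had a mean of at least 1 FPKM; their median was 0.08. Il1r1, the interleukin 1 receptor, was highest at 0.48, Cd40 was at 0.47 and passed the limit with no pseudocount (1.53-fold), and Irak2 lowest at -0.14. The most abundant, Tnfrsf12a, had 301 FPKM in Tet2 KO against 283 in WT.

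Other negative regulators did not share one direction. Of 16 genes 14 had a mean of at least 1 FPKM, with 6 above 0, 8 below and a median of -0.03, none past 1.5-fold. Tnfaip3, the gene of the deubiquitinase A20 and like Nfkbia a feedback target of the pathway, had 4.43 FPKM in Tet2 KO against 3.26 in WT, 1.36-fold, the same fold as Nfkbia. Zc3h12a, which encodes a nuclease that degrades Il6 transcript, had 8.63 and 6.26 FPKM, 1.38-fold. The most abundant regulator, Tax1bp1, had 92.3 and 96.9 FPKM. Rnf11 was lowest, with 44.5 FPKM in Tet2 KO against 62.4 in WT. Nfkbid, a further nuclear IκB gene outside the 10, stayed below the level limit, with 1.12 FPKM in Tet2 KO against 0.548 in WT.

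Il6 had 22.8 FPKM in Tet2 KO against 11.1 in WT, 2.06-fold and 0.98 on the log2(FPKM + 1) scale. This was a larger difference than that of any of the 10 NF-κB genes. Known target genes of the pathway were read in 2 lists, and Il6 is itself in the first. Of 20 cytokine and chemokine genes 11 had a mean of at least 1 FPKM; 6 of these passed 1.5-fold as higher and none as lower, and the median was 0.59, or 0.17 when genes below that level were kept. Without Il6, an alternative chosen after seeing the data, 5 of 10 passed with a median of 0.47. At a limit of 2-fold on the log2(FPKM + 1) scale 3 genes passed, and Il6, at 0.98, did not. The highest were Cxcl5 (39.9 FPKM in Tet2 KO against 14.1 in WT), Lif (9.93 and 3.55 FPKM) and Cxcl1 (90.8 and 41.1 FPKM). The most abundant, Csf1, had 169.99 and 149 FPKM. Of the 11 genes 9 were above 0 and 2 below, Cx3cl1 and Il1b, both at -0.31. Il1b had 2.08 FPKM in Tet2 KO against 2.81 in WT.

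Of 27 other target genes 24 had a mean of at least 1 FPKM, and 9 passed 1.5-fold as higher and none as lower, with a median of 0.29. At a limit of 5 FPKM the median was 0.17 and 5 genes passed. The 9 genes at the limit of 1 FPKM were led by Lcn2 (16.9 FPKM in Tet2 KO against 3.91 in WT), Bcl2a1b (10.7 and 2.91 FPKM) and C3 (6.85 and 1.66 FPKM). Bcl2a1b has near-identical gene copies, so its value is uncertain. Irf1, the most abundant, had 202 and 182 FPKM. Over both lists 15 of 35 genes, or 42.9%, were past 1.5-fold as higher, against 3.72% of all genes and none of the 10 NF-κB genes. Without Il6 they were 14 of 34, or 41.2%, and at a limit of 2-fold on the log2(FPKM + 1) scale 9 of the 35 passed. These lists and the marker lists below were chosen with earlier results of these data known, so their shares only describe the data. Among the 15 were Tnf (2.29 and 0.699 FPKM) and Mmp9 (1.64 and 0.521 FPKM), which reached the level limit only through Tet2 KO and so had to differ. Over both lists 29 of the 35 target genes were above 0 and 6 below, with a median of 0.35 against 0.06 for the family. They ranged from -0.31 to 1.86, and the family from -0.15 to 0.43.

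Leukocyte markers differed in the same direction as these values. All 20 leukocyte marker genes were past 1.5-fold as higher in Tet2 KO, where 3.72% of all genes were. They ranged from 0.88 to 2.07 with a median of 1.64. Their summed level was 2271 FPKM in Tet2 KO against 638 in WT. Adgre1 (3.67 FPKM in Tet2 KO against 0.712 in WT) reached the level limit only through Tet2 KO and so had to differ. The highest were Lyz2, Coro1a and Ctss, and the most abundant, S100a8, had 941 FPKM in Tet2 KO against 285 in WT. None was at 0 in either group. Ptprc and Itgam, which encode the CD45 and CD11b used to exclude leukocytes in the sort, had 5.67 and 10.1 FPKM in Tet2 KO and 1.36 and 2.09 FPKM in WT. In bulk RNA, more cells of a type and more RNA per cell cannot be told apart. The part of leukocyte transcripts in the values of Nfkbia, Nfkbiz, Il6 and the target lists was not tested.

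The myoblast identity of the culture was checked on 8 marker genes. Myod1 had 313 FPKM in Tet2 KO against 336 in WT, and 7 of the 8 genes lay within 1.5-fold. Myog was past it as lower, with 268 and 554 FPKM. Of the 8 genes 7 were below 0, and the 1 above 0, Vcam1, is also in the second target list. The summed level of all 8, Myog included, was 1385 FPKM in Tet2 KO against 1780 in WT. No lymphocyte marker of 8 reached the level limit, and the 2 of 8 endothelial markers that did lay within 1.5-fold, the summed level of all 8 being 8.51 FPKM in Tet2 KO against 9.09 in WT. Of 9 fibroblast markers 8 reached the level limit, with a median of 0.25. Dcn and Col1a2 were past 1.5-fold as higher in Tet2 KO, where 3.72% of all genes were. Pdgfra, with 1.91 FPKM in Tet2 KO against 1.06 in WT, passed that fold limit with no pseudocount (1.80-fold). The targeted gene could not check the labels, since its value covers all exons: Tet2 had 5.79 FPKM in Tet2 KO against 6.64 in WT.

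**Figure D4:**
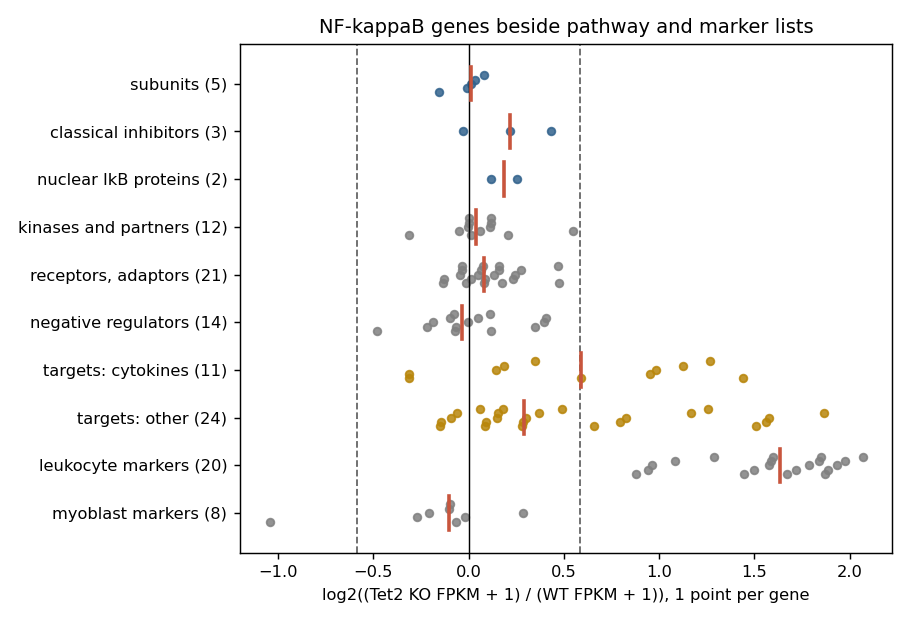
Difference between Tet2 KO and WT on the log2(FPKM + 1) scale, 1 point per gene with a mean of at least 1 FPKM, for the 3 roles of the NF-κB family (blue), lists of known target genes (gold) and other pathway and marker lists (grey), with the number of genes in brackets. Red bars are medians and dashed lines the 1.5-fold limit; the family lies between -0.15 and 0.43, target genes reach 1.86, and all 20 leukocyte markers lie at 0.88 or above.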

How the data were processed

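Libraries were made with the TruSeq RNA kit, which does not keep strand. The authors trimmed and filtered read pairs, aligned them to mm9 with TopHat 2.0.13, and deposited FPKM values from Cuffdiff 2.2.1 as 1 value per gene and group; how the 2 samples of a group were combined, and the gene annotation, are not given in the sources used here. The labels do not say whether samples of a group came from separate animals. The same table holds the authors' own log2 fold changes, test statistics, p-values and q-values, which were not used.

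Differences were computed as log2((Tet2 KO FPKM + 1) / (WT FPKM + 1)), for genes with a mean of both groups of at least 1 FPKM, with a fold limit of 1.5. The calculation was checked on simulated data. No test across samples was possible on 1 value per group, and no test of gene lists was made. The family, gene lists and the rule for naming genes (all 10 members, Il6, Tet2, and in each list up to 3 genes at either end past the limit and the most abundant) were chosen with earlier results of these data known. Ikbkb, Ikbkg, Ikbke, Il1r1, Irak2, Tnfaip3, Zc3h12a, Rnf11, Nfkbid, Cd40, Cx3cl1, Il1b, Tnf and Mmp9 were picked after their values were seen. So were Myod1, Vcam1, Ptprc, Itgam, Adgre1, Pdgfra and any gene named in the closing section.

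Coordinates are those of the table, with 1 added to each start. Strand and exons came from GENCODE vM1, the same build, where all 10 genes overlapped their deposited position; the position given for Nfkb2 also takes in Psd, and that for Nfkbib takes in Ccer2. Low values held no steps of whole reads that would give depth. The values and plots were made in Python 3.11.15 with pandas 2.3.3, numpy 2.4.6 and matplotlib 3.10.9.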

Additional observations from a re-analysis of the deposited data

How the results depend on the processing

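No paired analysis was possible because the table gives 1 pooled value per group; for the same reason no replicate could be left out. A pseudocount of 0.1 or none, rescaling to TPM and median centring moved none of the 10 NF-κB genes by more than 0.1 on the log2 scale and brought none past 1.5-fold; rescaling to TPM left the median of all genes at -0.0012. The median of the family stayed within 0.1 under these and under other limits on low values. A lower fold limit, a level 25% higher, counted 1 NF-κB gene as higher, Nfkbia, and none as lower. Over all genes the main counts were 435 higher and 338 lower; they became 823 and 822 at the 25% limit, 243 and 142 at a limit of 2, and 182 and 207 at a mean of at least 5 FPKM. The log2 ratio of the summed inhibitor and nuclear IκB genes went from 0.33 to 0.21 without Nfkbia. For Il6 and the other gene lists, 221 values under an alternative stayed within 0.1 of the main log2 value or 1.5 times of the count and 22 did not. Ikbke at 1.70-fold, Cd40 at 1.53-fold and Pdgfra at 1.80-fold passed the limit with no pseudocount. The cytokine and chemokine list had a median of 0.17 with no filter on low values. Without values per sample, the 1.36-fold of Nfkbia cannot be placed against sample error.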

Other observations

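CpG dinucleotides were counted in the windows of the 7 genes that had one. Over the 300 bases around the start, Rel had 42 CpG, Rela 31, Bcl3 26, Nfkb2 25 (first start), Nfkbib 20, Nfkbie 16 and Nfkbia 15, against a median of 7 and a middle 50% from 3 to 20 over 32851 windows; Il6 had 3. Rel, Rela, Bcl3 and Nfkb2 lay above this range, and Nfkbia, Nfkbie and Nfkbib lay within it or at its edge. The range also took in genes with little or no expression here, and none was computed for expressed genes alone. It therefore does not set the family apart from other expressed genes. Nfkbia, with the largest difference in expression, had the fewest of the 7 genes, but Nfkbie, with 16, differed by -0.03. A relation of CpG count to expression was not tested. Methylation was not analysed here.

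Genes with and without a κB match in the promoter window had similar medians. Over the 562 genes with a match the median difference was 0.0037 on the log2(FPKM + 1) scale, and 4.63% were past 1.5-fold as higher; over the 8552 genes without a match these values were -0.0053 and 3.30%. Within the family, the genes with a match were Nfkbia at 0.43, Bcl3 at 0.12, Nfkb2 at 0.04, Rel at 0.01 and Nfkbie at -0.03, and those without were Nfkbib at 0.22 and Rela at -0.15.

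Exons of 3 of the 10 genes share bases with another annotated gene on the opposite strand, which a library without strand cannot tell apart. Bcl3 shares 6.48% of its exon bases with Gm16175, Nfkbib 1.94% with Sirt2 and Nfkb2 0.122% with Psd.

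Ly6a, the gene of the Sca1 protein used to exclude cells in the sort, had 288 FPKM in Tet2 KO against 278 in WT after culture, a level above that of each NF-κB gene in both groups.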
